A study of Homo sapiens with 12 samples.

Results

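Genomic imprinting marks a small set of mammalian genes by parental origin, so that RNA is made mainly from the paternal copy of some genes and from the maternal copy of others. The marks are laid down as DNA methylation at control regions, and 1 region often governs a whole cluster, such as DLK1 with MEG3 or H19 with IGF2. Many imprinted genes act on fetal growth and on the balance between proliferation and differentiation, in skeletal muscle among other tissues, and relaxed imprinting at the H19 and IGF2 cluster has long been described in rhabdomyosarcoma. Described here are the probes for 10 such genes, H19, DLK1, MEG3, PEG3, PEG10, MEST, CDKN1C, NDN, SNRPN and GRB10. The members were all non-control probes whose annotated gene symbol was 1 of these 10, and there were 17 of them among the 41000 gene probes of the array.

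The samples were RNA of Rh30, a human alveolar rhabdomyosarcoma (ARMS) line that carries the PAX3-FKHR fusion, grown for 24 h after plating. WT was the parental line without selection, CON a stable clone carrying a non-targeting short hairpin RNA, and KD1 a stable clone carrying a hairpin against PAX3-FKHR, both clones kept in puromycin at 1 μg/mL. All 3 cultures thus carried the fusion, which the hairpin lowered only in part. Two-colour Agilent whole-genome arrays set KD1 against CON, KD1 against WT and WT against CON, each for 2 biological replicates and each replicate on an array and its dye swap, 12 arrays in all. CON and KD1 are each 1 clone, so that the hairpin and the history of a clone cannot be told apart, and the 6 RNA extracts are shared among the 3 comparisons.

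Of the gene probe spots on an array, between 64.4% and 67.8% in the red channel and between 71.1% and 73.6% in the green were well above background. All 7 muscle and rhabdomyosarcoma markers examined, MYOD1 and MYOG among them, were well above background in all 24 channel readings, while markers of other lineages gave mixed results (LUM, FAP, PTPRC and KDR were above it in none, and COL1A1, KRT8, KRT18, CD3E, CD14 and PECAM1 in all). Whether any probe crosses the fusion junction was not examined. The 3 PAX3 and 2 FOXO1 probes, which also read the unrearranged genes, averaged between −0.42 and −0.09 on the log2 scale in KD1 over CON and between −0.60 and 0.06 in KD1 over WT, and none was called. In replicate 2 of KD1 over WT the array and its dye swap differed by a median of 0.41 log2 units over all tested probes, against 0.16 to 0.19 for the other 5 pairs, and every KD1 over WT mean below rests in part on that pair.

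Values are log2 ratios of the first culture named over the second. A replicate value is the mean of an array and its dye swap, errors are SDs over the 2 replicate values, and the test was limma's moderated test on the replicate values with Benjamini-Hochberg adjustment over all probes tested in a comparison. A probe was tested where it exceeded the negative controls in at least 1 channel on all 4 arrays of the comparison, and was called at an adjusted p under 0.05. The number of arrays limits the precision: with 2 replicates a comparison, only changes that are large or closely repeated could pass.

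The members fell into 2 groups by detection. The 9 probes of 6 genes (DLK1, MEG3 with 4 probes, PEG3, PEG10, MEST and 1 of the SNRPN probes) were well above background in all 8 channel readings of each of the 3 cultures. The other 8 probes, of H19, CDKN1C, NDN, GRB10 and 3 further SNRPN transcripts, were at or near background everywhere, and 5 of them were never well above it.

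**Figure D1:**
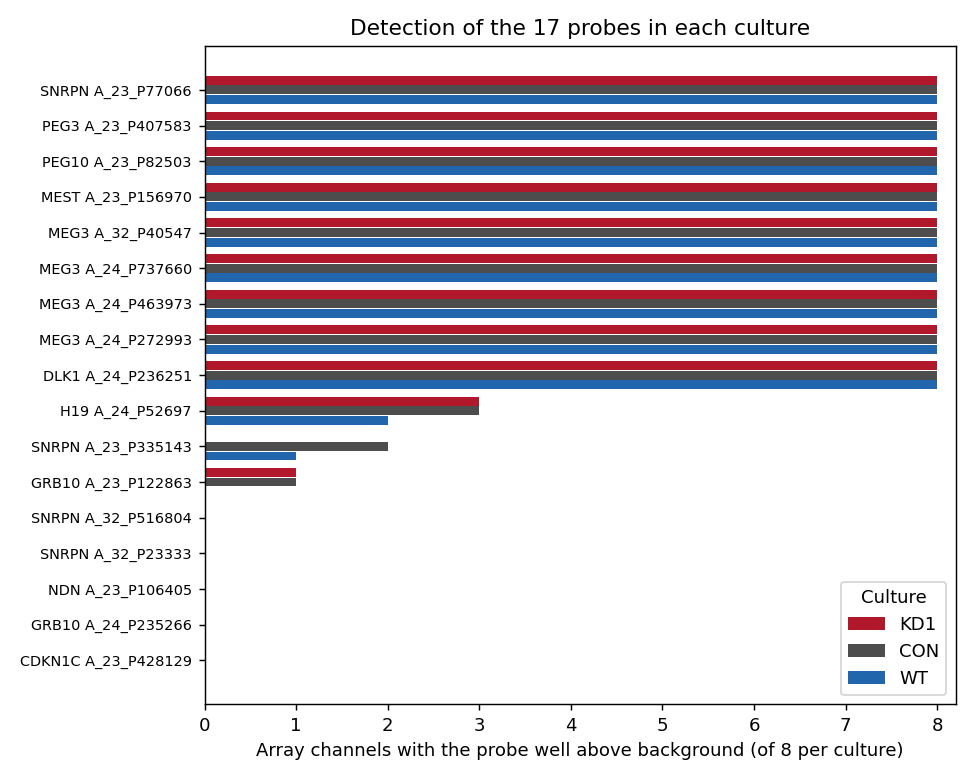
Number of array channels, of 8 for each culture, in which each of the 17 probes was well above background; red bars are KD1, grey bars CON and blue bars WT. Of the 17, 9 probes reached 8 in every culture, H19 reached 3 in KD1, 3 in CON and 2 in WT, and 5 probes reached 0 throughout.

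The sequences of 7 probes are shown because the results below turn on where these probes sit along a transcript. They are the DLK1 probe, the 4 MEG3 probes in the order in which they lie on chromosome 14, and a SNRPN and a SNURF probe that read 2 parts of 1 bicistronic transcript on chromosome 15. Each is the array's own 60-base sequence, 5′ to 3′ on the plus strand, as deposited; positions are NCBI36 as the array files give them. Capitals mark AATAAA, the common polyadenylation signal, the only motif searched for.
DLK1 A_24_P236251, chr14:100270801-100270860: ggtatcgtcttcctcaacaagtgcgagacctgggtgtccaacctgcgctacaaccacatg
MEG3 A_32_P40547, chr14:100365727-100365786: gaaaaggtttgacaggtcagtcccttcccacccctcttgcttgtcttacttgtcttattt
MEG3 A_24_P737660, chr14:100384821-100384880: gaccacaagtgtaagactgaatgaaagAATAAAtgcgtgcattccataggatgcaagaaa
MEG3 A_24_P463973, chr14:100393296-100393355: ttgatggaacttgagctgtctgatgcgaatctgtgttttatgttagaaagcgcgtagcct
MEG3 A_24_P272993, chr14:100396938-100396997: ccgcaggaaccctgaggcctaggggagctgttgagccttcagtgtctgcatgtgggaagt
SNRPN A_23_P77066, chr15:22771616-22771675: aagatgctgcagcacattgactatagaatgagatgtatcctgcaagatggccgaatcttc
SNURF A_24_P347624, chr15:22758359-22758418: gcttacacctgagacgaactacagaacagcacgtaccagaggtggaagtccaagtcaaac
The DLK1 probe ends 94.9 kb before the first MEG3 probe, and the 4 MEG3 probes span 31.3 kb. Per the array annotation, the first and the last MEG3 probe (A_32_P40547 and A_24_P272993) were designed to the RefSeq MEG3 transcript variant 1, and the 2 between them to separate cDNA clones assigned to MEG3. AATAAA stood in A_24_P737660 alone of the 7; it stood in 4.16% of all gene probes on the probe's own strand and in 7.6% on either strand.

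In the comparisons the array was used for, none of the members was called. In KD1 over CON, 0 of 8 tested member probes were called, against 1.79% of the 21937 probes tested. In KD1 over WT, 0 of 9 were called, against 1.05% of 24884, and in WT over CON 0 of 9, against 1.37% of 26595. At an unadjusted p under 0.05, limma gave 1 member probe in KD1 over CON (PEG3), 1 in KD1 over WT (MEST) and 2 in WT over CON (PEG3 and PEG10), beside 3775, 4282 and 4401 of all probes tested (17.2%, 17.2% and 16.5%). Nor did any tested member probe average a 2-fold difference with the same direction on all 4 arrays, which 3.94% of probes did in KD1 over CON, 4.35% in KD1 over WT and 4.41% in WT over CON. The median over the tested member probes was −0.03 in KD1 over CON, 0.03 in KD1 over WT and 0.45 in WT over CON, beside −0.01, 0.01 and −0.03 over all probes. The WT over CON median was −0.22 without replicate 1 and 0.61 without replicate 2, and 0.21 with normexp and loess and 0.25 with median centring. The KD1 over WT median was 0.13 without replicate 1 and −0.37 without replicate 2. In KD1 over CON it was −0.18 without replicate 1 and 0.11 without replicate 2, so that no direction of the list held across replicates. Of the 9 probes behind these medians, 4 belong to MEG3.

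**Figure D2:**
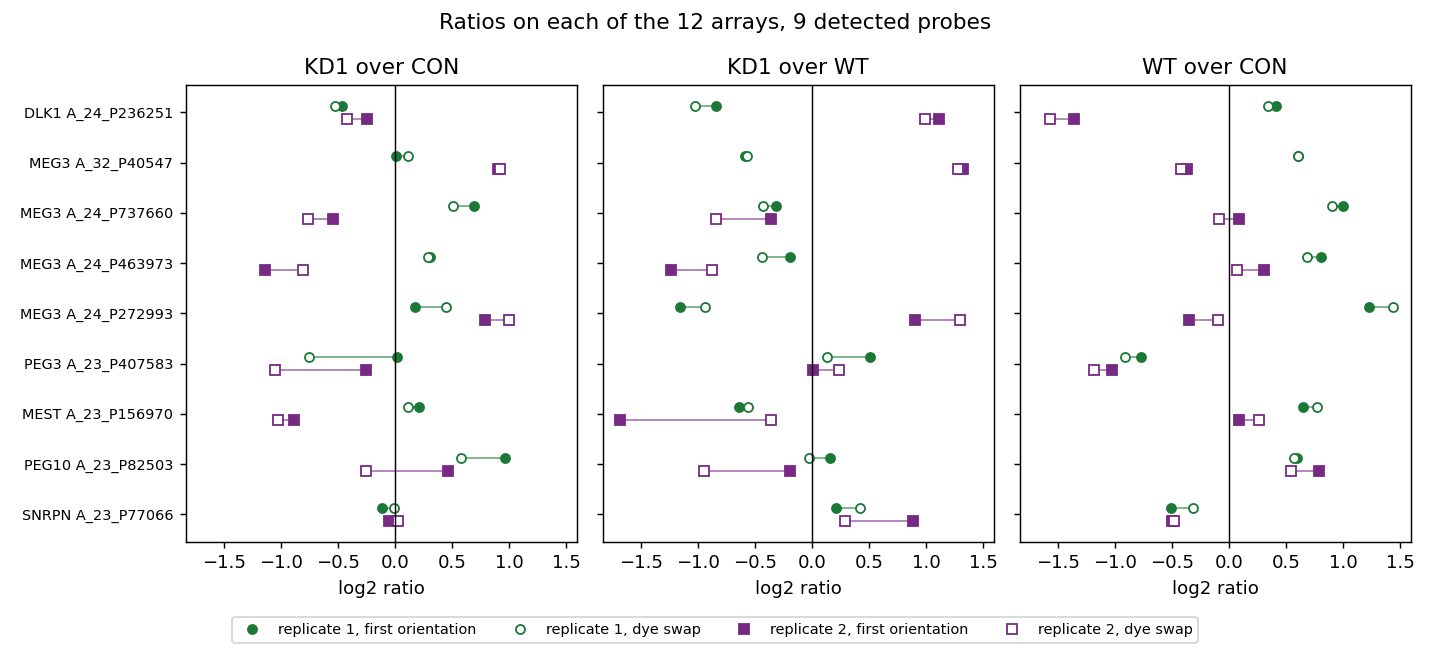
Log2 ratio (horizontal axis) of the 9 detected member probes on each of the 12 arrays, 1 panel for each comparison. Circles are replicate 1 and squares replicate 2, filled symbols the first dye orientation and open symbols the dye swap, already turned; a line joins the 2 arrays of a replicate. In KD1 over WT the DLK1 probe lies at −0.84 and −1.03 in replicate 1 and at 1.11 and 0.99 in replicate 2.

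DLK1 and MEG3 are reciprocally imprinted neighbours. DLK1, made from the paternal copy, encodes a transmembrane protein related to Notch ligands that restrains the differentiation of adipocyte precursors. MEG3, made from the maternal copy, is a long noncoding RNA described as a growth suppressor. In KD1 over WT and in WT over CON, the replicates of DLK1 and of the 2 outer MEG3 probes lay on opposite sides of 0. In KD1 over WT the DLK1 probe read −0.84 and −1.03 on the 2 arrays of replicate 1, and 1.11 and 0.99 on those of replicate 2. In WT over CON it read 0.41 and 0.34 in replicate 1, and −1.35 and −1.57 in replicate 2. Both dye orientations thus gave the same sign and nearly the same size within a replicate, and the replicates lay on opposite sides of 0. In KD1 over CON, by contrast, all 4 arrays were below 0, at −0.47, −0.53, −0.25 and −0.42.

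Because of the opposed replicates, the mean DLK1 ratio was 0.06 ± 1.40 (SD, n = 2, limma adjusted p = 0.967) in KD1 over WT and −0.54 ± 1.30 (SD, n = 2, limma adjusted p = 0.608) in WT over CON. The KD1 over CON mean, −0.42 ± 0.11 (SD, n = 2), exceeded its replicate spread but had a limma adjusted p of 0.716, since the spread of the other 2 comparisons enters the same fit.

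The first and last MEG3 probes took the same course as DLK1. A_24_P272993, near the far end of the locus, read −1.16 and −0.94 in replicate 1 of KD1 over WT, and 0.90 and 1.30 in replicate 2. In WT over CON it read 1.23 and 1.44 in replicate 1, and −0.35 and −0.09 in replicate 2. A_32_P40547, the first of the 4, read −0.58 and −0.57 and then 1.32 and 1.28 in KD1 over WT, and 0.61 and 0.60 and then −0.36 and −0.42 in WT over CON. For both probes, as for DLK1, WT was the higher culture in replicate 1 of either comparison and the lower in replicate 2. The same WT extracts entered both comparisons, which are therefore not independent of each other.

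The 2 inner MEG3 probes, designed to separate cDNA clones, did not take that course. In KD1 over WT, A_24_P737660 read −0.32, −0.43, −0.36 and −0.84 over the 2 replicates, and A_24_P463973 read −0.20, −0.43, −1.24 and −0.87, all 8 values below 0. Where the outer probes were above 0 in replicate 2, these were therefore below it. In KD1 over CON the inner probes, unlike the outer ones, divided the replicates, with 0.69 and 0.51 against −0.55 and −0.76 for A_24_P737660, and 0.31 and 0.29 against −1.14 and −0.81 for A_24_P463973, the latter above the negative controls on only 3 of the 4 arrays and so not tested. In WT over CON both were higher in replicate 1 (means 0.95 and 0.75) than in replicate 2 (0.00 and 0.19). These 2 probes gave lower signal than the outer ones, and their sizes depended on background correction. With normexp and loess, A_24_P737660 gave 0.40 and −0.29 in KD1 over CON, and A_24_P463973 gave 0.16 and −0.27. In KD1 over WT they gave −0.35 and −0.35, and −0.17 and −0.36. The outer probes there gave −1.05 and 1.16 (A_24_P272993), and −0.67 and 1.31 (A_32_P40547). Whether the course differs by transcript was not tested.

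Replicates with opposite signs and both at least 0.5 log2 units from 0, a rule set after these values were seen, were counted over all tested probes for comparison. In KD1 over WT, 3 of 9 member probes met it, DLK1 and the 2 outer MEG3 probes, against 3.14% of all tested probes. These 3 are not independent: the outer probes were designed to 1 MEG3 transcript, DLK1 is its neighbour, and all were read from the same extracts. In KD1 over CON, 1 of 8 met the rule, the inner MEG3 probe A_24_P737660, against 0.561%, and in WT over CON 0 of 9, against 1.74%. With normexp and loess the A_24_P737660 replicates in KD1 over CON were 0.40 and −0.29, both under 0.5 in size. The change from replicate 1 to replicate 2 in KD1 over WT was 1.99 for DLK1, 2.15 for A_24_P272993 and 1.88 for A_32_P40547; its size was above that of 98.3%, 98.7% and 98.0% of tested probes. These 3 values rest in part on the less repeatable dye-swap pair, though for these probes its 2 arrays differed by 0.12, 0.40 and 0.04.

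**Figure D3:**
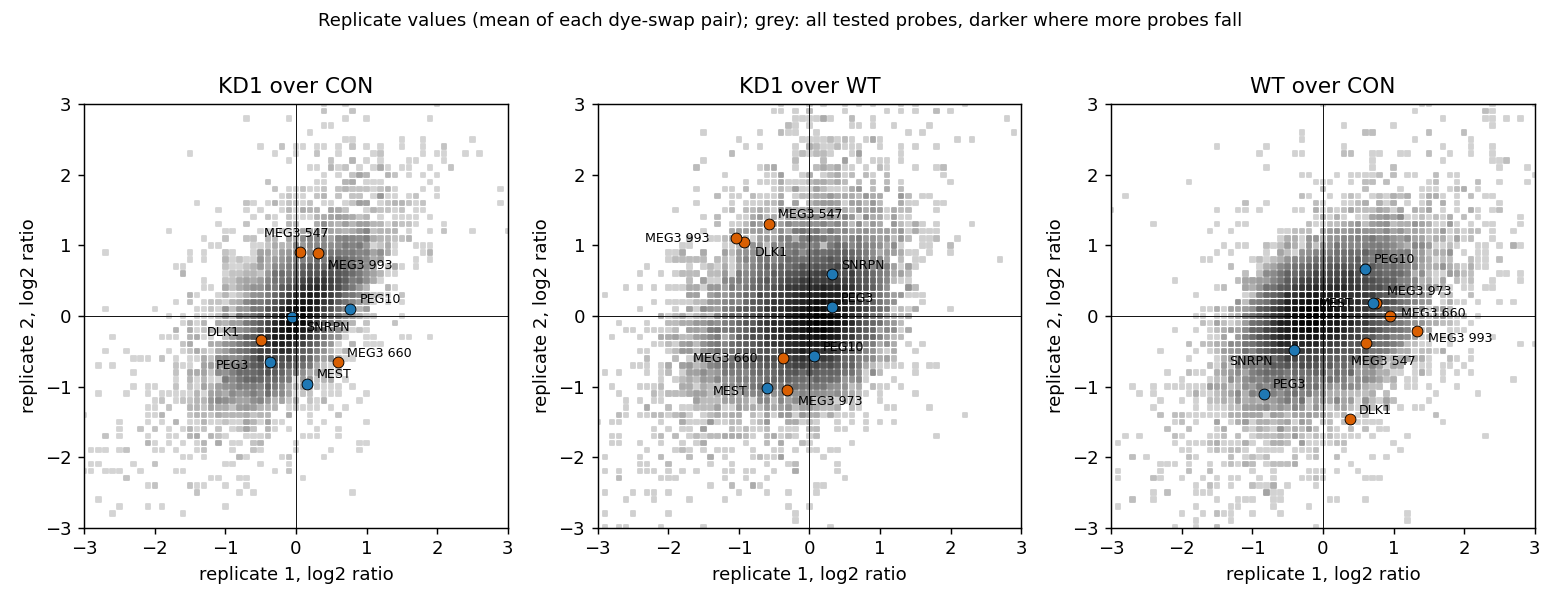
Replicate 1 (horizontal) against replicate 2 (vertical) log2 ratios in each comparison; grey squares are all tested probes in bins of 0.1, darker where more fall, orange points DLK1 and MEG3 and blue points the other detected members. MEG3 labels carry the last 3 digits of the probe name. In the KD1 over WT panel DLK1 and 2 MEG3 probes lie together in the upper left, with replicate 1 values between −1.05 and −0.58 and replicate 2 values between 1.05 and 1.30.

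Levels of the single RNA extracts, the mean log2 channel intensity over the 4 arrays on which an extract was used, show which cultures differed. The DLK1 level was 9.49 and 10.80 in replicates 1 and 2 of CON, 9.01 and 10.41 in KD1, and 9.91 and 9.32 in WT. The 2 clones were thus higher in replicate 2, and WT was higher in replicate 1. The A_24_P272993 level was 14.87 and 15.39 in CON, 15.14 and 16.28 in KD1, and 16.18 and 15.16 in WT, and that of A_32_P40547 was 12.33 and 12.62 in CON, 12.40 and 13.61 in KD1, and 12.95 and 12.24 in WT. For all 3 probes CON and KD1 stood higher in replicate 2 and WT in replicate 1. The inner probes differed from this: A_24_P463973 stood at 6.02 and 7.21 in CON, 6.35 and 6.32 in KD1, and 6.87 and 7.49 in WT, and A_24_P737660 at 7.93 and 8.81 in CON, 8.58 and 8.10 in KD1, and 8.84 and 8.85 in WT. Levels are comparable across extracts for 1 probe but not between probes, and each KD1 comparison had its replicates on separate slides, so that slide and replicate cannot be told apart there; all 4 arrays of WT over CON shared 1 slide.

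**Figure D4:**
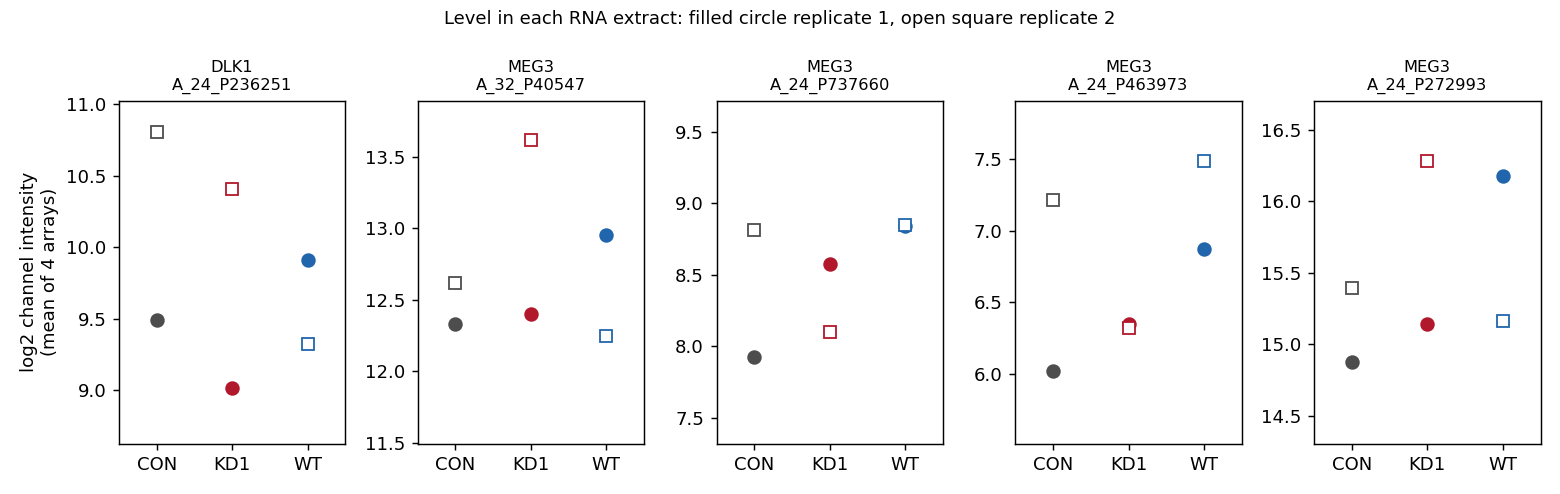
Log2 channel intensity (vertical axis, each panel spanning the same number of log2 units) of DLK1 and the 4 MEG3 probes in each RNA extract of CON, KD1 and WT; filled circles are replicate 1 and open squares replicate 2, each the mean of 4 arrays. For DLK1 and the probes A_32_P40547 and A_24_P272993 the square lies above the circle in CON and KD1 and below it in WT.

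The genes around the locus were read in the same way. The median of the 50 nearest tested genes around DLK1 was 0.21 in replicate 1 and 0.26 in replicate 2 of KD1 over WT, and 0.02 and −0.11 in WT over CON. In the narrower window of 25 genes it was 0.15 and 0.50 in KD1 over WT, and 0.15 and −0.30 in WT over CON. The narrower medians thus moved between the replicates in the same direction as DLK1 and by less. DIO3, the imprinted deiodinase gene at the far end of the cluster, was well above background in 5 of 8 readings in KD1, 3 of 8 in CON and 1 of 8 in WT, and was not tested.

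PEG3, a paternally expressed zinc finger gene that acts in p53-linked cell death and is active in muscle progenitors, was lower in WT than in CON on all 4 arrays. They read −0.77, −0.91, −1.02 and −1.18, a mean of −0.97 ± 0.18 (SD, n = 2). The difference was several times its replicate spread but had a limma adjusted p of 0.0792, which ranged from 0.0344 to 0.349 over the alternative settings. KD1 over CON was smaller, with 0.02, −0.75, −0.26 and −1.05 and a mean of −0.51 ± 0.20 (SD, n = 2, limma adjusted p = 0.243); the dye-swap array was the lower in both replicates. KD1 over WT averaged 0.22 ± 0.14 (SD, n = 2, limma adjusted p = 0.626), with all 4 arrays above 0.

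Around PEG3 the neighbouring genes were lower in WT than in CON as well. ZIM2, which shares promoter and first exons with PEG3, averaged −1.06 ± 0.44 (SD, n = 2, limma adjusted p = 0.12) in WT over CON and −0.67 ± 0.45 (SD, n = 2, limma adjusted p = 0.257) in KD1 over CON. Of the 50 tested genes nearest to PEG3 on chromosome 19, with starts between 60824964 and 62892579 (NCBI36), 43 were below 0 in WT over CON, and their median was −0.40, −0.53 in replicate 1 and −0.32 in replicate 2. Only 0.1% of the 17753 windows of that size across the genome had a lower median. In KD1 over CON the median was −0.21, with 10.9% of windows lower, and in KD1 over WT 0.15. PEG3 and ZIM2 thus lay below their neighbours' median in WT over CON; neighbouring windows overlap, and this was a description with no test.

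SNRPN encodes the spliceosomal protein SmN, a close relative of SmB, and is read from the paternal copy with SNURF, whose reading frame lies upstream in the same transcript. The detected SNRPN probe was lower in WT than in CON on all 4 arrays, at −0.50, −0.32, −0.50 and −0.48, a mean of −0.45 ± 0.06 (SD, n = 2, limma adjusted p = 0.32). KD1 over CON averaged −0.04 ± 0.03 (SD, n = 2, limma adjusted p = 0.959), with the 4 arrays between −0.12 and 0.02. KD1 over WT was 0.21, 0.42, 0.88 and 0.29, a mean of 0.45 ± 0.19 (SD, n = 2, limma adjusted p = 0.298), its highest value from the less repeatable pair. The SNURF probe, 13.2 kb upstream, did not follow: its WT over CON mean was 0.02 ± 0.02 (SD, n = 2, limma adjusted p = 0.972). Whether the SNRPN probe also binds SmB RNA was not tested. The 3 further SNRPN probes, for downstream or alternative transcripts of the locus, were well above background in 3 of 24 channel readings (A_23_P335143) and in 0 of 24 (A_32_P23333 and A_32_P516804), and no fold is given for them.

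PEG10, a paternally expressed gene derived from a retrotransposon and needed in placenta, was higher in WT than in CON on all 4 arrays. They read 0.60, 0.58, 0.79 and 0.55, a mean of 0.63 ± 0.06 (SD, n = 2, limma adjusted p = 0.259). KD1 over CON averaged 0.44 ± 0.47 (SD, n = 2, limma adjusted p = 0.394), with 0.96 and 0.58 in replicate 1 but 0.46 and −0.25 in replicate 2. KD1 over WT averaged −0.25 ± 0.45 (SD, n = 2, limma adjusted p = 0.639), within its replicate spread. SGCE, which shares a divergent promoter region with PEG10 and encodes epsilon-sarcoglycan, averaged 0.21 ± 0.34 (SD, n = 2, limma adjusted p = 0.683) in WT over CON and −0.43 ± 0.19 (SD, n = 2, limma adjusted p = 0.349) in KD1 over WT.

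MEST, a paternally expressed member of the alpha/beta hydrolase fold family, was lower in KD1 than in WT on all 4 arrays. They read −0.64, −0.56, −1.68 and −0.36, a mean of −0.81 ± 0.30 (SD, n = 2, limma adjusted p = 0.208). The 2 arrays of replicate 2, the less repeatable pair, differed by 1.32 here, so that the −1.68 was not repeated by its dye swap. Against CON the replicates of KD1 disagreed, 0.21 and 0.11 in replicate 1 and −0.88 and −1.03 in replicate 2, a mean of −0.40 ± 0.79 (SD, n = 2, limma adjusted p = 0.518). WT over CON was above 0 on all 4 arrays, at 0.65, 0.78, 0.09 and 0.26 (mean 0.45 ± 0.38, SD, n = 2, limma adjusted p = 0.473). COPG2, the coatomer subunit gene next to MEST on the opposite strand, averaged 0.50 ± 0.10 (SD, n = 2, limma adjusted p = 0.284) in KD1 over WT.

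The remaining 4 genes gave no testable value. H19, a maternally expressed noncoding RNA that shares enhancers with IGF2, was well above background in 3 of 8 readings in KD1, 3 of 8 in CON and 2 of 8 in WT, at NCBI36 chromosome 11, 1973250 to 1973309. Its ratios were −1.01, 0.36, −0.65 and −1.02 in KD1 over CON, 0.14, 1.40, −0.19 and 1.40 in KD1 over WT and −1.41, −0.24, −0.57 and −0.47 in WT over CON. The dye-swap array was at least 1.26 log2 units above its partner in both replicates of KD1 over WT. Within that comparison the sign thus turned with the dye in replicate 2. IGF2, the fetal growth factor gene of the cluster, was readily measured: its brightest probe was lower in WT than in CON at −1.11 ± 0.07 (SD, n = 2, limma adjusted p = 0.0595) and averaged −0.73 ± 0.19 (SD, n = 2, limma adjusted p = 0.136) in KD1 over CON. The 4 IGF2 probes averaged between −1.40 and −0.97 in WT over CON, and 1 of them, A_23_P421379, was called (−1.39 ± 0.32, SD, n = 2, limma adjusted p = 0.042). That call was lost with normexp and loess (limma adjusted p = 0.11), with median centring (0.0691) and without the filter (0.0862). The same held with the replicate block on extract values (limma adjusted p = 0.078) and with no replicate block on separate channels (0.125). Normexp and loess called only 2 of all 26595 probes tested in WT over CON, so the loss there says little about IGF2. The value was −1.16 without replicate 1 and −1.62 without replicate 2, and stayed between these in the other settings.

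CDKN1C, a maternally expressed inhibitor of cyclin-dependent kinases, was well above background in 0 of 24 readings, so that no culture can be said to differ from another; its 12 ratios lay between −1.26 and 0.71. Its neighbour PHLDA2, a maternally expressed restrainer of placental growth, was well above background in all 8 readings of KD1 and of WT and in 4 of 8 of CON. In WT over CON the PHLDA2 probe read 2.75, 2.47, 3.83 and 3.04, a mean of 3.02 ± 0.58 (SD, n = 2, limma adjusted p = 0.00834), and all 4 values lay above 0. With CON at or near background in part of its readings, the size of this difference is uncertain. The value was 3.43 without replicate 1 and 2.61 without replicate 2. With normexp background correction and loess the mean was 0.81 (limma adjusted p = 0.124) and the call was lost. That setting called only 2 of the 26595 probes tested in WT over CON, so the loss itself says little about PHLDA2. KD1 over CON gave 1.69, 1.58, 2.84 and 3.13, but only 2 of the 4 arrays exceeded the negative controls and it was not tested. The negative-control cutoff was 15.9 to 40.6 signal units on the replicate 1 arrays of that comparison and 3.5 to 4.2 on those of replicate 2. Without the filter, the KD1 over CON mean of 2.31 ± 0.96 (SD, n = 2) had a limma adjusted p of 0.0471. KD1 over WT averaged −0.55 ± 0.36 (SD, n = 2, limma adjusted p = 0.425). KCNQ1OT1, the noncoding RNA that controls this cluster from the paternal copy, had 2 tested probes, which differed. The brighter averaged −0.15 ± 0.36 (SD, n = 2, limma adjusted p = 0.791) in WT over CON and −0.18 ± 0.03 (SD, n = 2, limma adjusted p = 0.718) in KD1 over WT. The other, A_32_P41924, averaged −0.56 ± 0.47 (SD, n = 2, limma adjusted p = 0.295) in WT over CON and 0.78 ± 0.35 (SD, n = 2, limma adjusted p = 0.164) in KD1 over WT.

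NDN, the paternally expressed necdin gene, a growth suppressor that also promotes muscle differentiation, was well above background in 0 of 24 readings. Its WT over CON ratios were 0.73, −0.62, 0.72 and −0.84, positive in the first dye orientation and negative in the swap of both replicates, and the mean of 0.00 is the mean of these opposed readings. MAGEL2, its neighbour and relative, was well above background in 3 of 8 readings in KD1, 2 of 8 in CON and 0 of 8 in WT, and was not tested. GRB10, an adaptor that dampens insulin and insulin-like growth factor receptor signalling, has 2 probes; A_24_P235266 was above background in 0 of 24 readings and A_23_P122863 in 1 of 8 in KD1, 1 of 8 in CON and 0 of 8 in WT. DDC, beside GRB10, was above it in 3 of 8 readings in WT and in none in KD1 or CON, and was not tested.

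Beyond the 10 genes, a list of 48 other imprinted genes had 45 with a probe. Taking the brightest tested probe of each, 0 of 27 tested genes were called in KD1 over CON, 0 of 29 in KD1 over WT and 1 of 29 in WT over CON, PHLDA2, beside the 1.79%, 1.05% and 1.37% of all tested probes. At an unadjusted p under 0.05, limma gave 7, 4 and 8 of these genes (25.9%, 13.8% and 27.6%), beside 17.2%, 17.2% and 16.5% of all tested probes. The medians over the list were −0.13, −0.10 and −0.01. In WT over CON, 3 genes singled out after their values were seen also had replicates close together: OSBPL5, near CDKN1C, at 0.94 ± 0.04 (SD, n = 2, limma adjusted p = 0.0786), IPW, downstream of SNRPN, at −0.89 ± 0.10 (SD, n = 2, limma adjusted p = 0.0945), and ZDBF2 at 0.90 ± 0.04 (SD, n = 2, limma adjusted p = 0.0912). In KD1 over CON, which was read against the same CON extracts and so is not independent, all 3 went the same way. There OSBPL5 averaged 0.88 ± 0.16 (SD, n = 2, limma adjusted p = 0.0748), IPW −0.63 ± 0.24 (SD, n = 2, limma adjusted p = 0.172) and ZDBF2 0.46 ± 0.13 (SD, n = 2, limma adjusted p = 0.278). In KD1 over WT they averaged −0.08, 0.39 and −0.39.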

How the data were processed

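Per the labels and the methods of the study, 500 ng of total RNA was labelled for each channel. Two-colour intensity values had been extracted, background-subtracted and dye-normalised (linear and lowess) by Agilent Feature Extraction 10.5.1.1 before they were deposited. The scanner files also give a log10 ratio per spot, as deposited. The deposited series table held log2 ratios of the same arrays, already turned, which differed from the scanner files by at most 5.35e-06. Processed red over green signal was taken as log2, turned for dye swaps, averaged over spots of a probe (outlier-flagged spots left out) and over each dye-swap pair. A probe exceeded the negative controls where it passed the 99th percentile of the 153 on its array. limma 3.58.1 in R 4.3.3 was fitted to 6 replicate values. That fit leaves 3 residual degrees of freedom, which were lowered by hand to 2 since the 3 ratios of a replicate come from 3 shared extracts, and its p-values rest on that choice. A fit on extract values, which has 2 without any such change, was an alternative. Extract levels were single-channel values after Aquantile normalisation. Running medians took 51 genes less the member itself. All member probes, PAX3, FOXO1, called genes of the other imprinted list and listed cluster partners were named. RTL1, a listed partner of DLK1 and MEG3, had no probe under that symbol. Genes most alike to a called member were to be named too, but none was called. The members and lists were chosen with earlier results of these data known. The labels call the 2 replicates biological. p-values rest on the spread between replicates pooled over the 3 comparisons and moderated across probes, while each SD covers the 2 replicates of its own comparison only. Probe positions are NCBI36; no annotation of that build was used, so exon and intron are not given. Alternatives are listed in the closing section.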

Additional observations from a re-analysis of the deposited data

Results flagged for a closer look

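One result was flagged among the 26 sets of 4 arrays examined for the members. For the detected SNRPN probe in WT over CON, the array at −0.32 stood apart from the other 3, at −0.50, −0.50 and −0.48, its gap being 0.881 of the whole range. The range itself was under 0.2 log2 units, and chance flags about 1 in 20 such sets.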

How the results depend on the processing

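The count of 0 called member probes was the same in every setting that kept both replicates, except with 1 dye orientation alone. There 1 was called in KD1 over WT with the first orientation (MEST, −1.16), 1 in KD1 over CON with the dye swaps (PEG3, −0.90) and 1 in WT over CON with the dye swaps (PEG3, −1.05). With 1.79%, 1.05% and 1.37% of all tested probes called, 0 of 8 or 9 was near the overall share and is no result about these genes. Normexp and loess called only 26, 1 and 2 of all probes in KD1 over CON, KD1 over WT and WT over CON. A count of 0 members was therefore almost fixed in advance with that setting. Of the 2-fold counts, 0 in each comparison, KD1 over WT gave 1 with the first orientation and 1 to 5 with a replicate left out (5 without replicate 1, 1 without replicate 2), and WT over CON gave 1 with the dye swaps and 1 to 2 with a replicate left out (2 without replicate 1, 1 without replicate 2). Among the other imprinted genes, KD1 over CON, with 0, gave 1 without the filter (PHLDA2), 1 with the dye swaps and 1 with slide dye effects fitted. WT over CON, with 1, gave 0 with normexp and loess, 0 with the stricter filter, 3 with the first orientation, 4 with the dye swaps, 2 on its own values and 5 with slide dye effects. Calls over all probes ranged from 9 to 1191 against 393 in KD1 over CON, from 1 to 1457 against 261 in KD1 over WT and from 0 to 1100 against 365 in WT over CON, lowest with a replicate left out or with normexp and loess. With the replicate number as a block on extract values, and with no replicate block on separate channels, 0 member probes were called in each comparison. Extracts of the same number were hybridised together, which is where the pairing comes from. The neighbourhood medians moved by more than their replicate spread for DLK1 in KD1 over CON (0.21 with 25 genes, 0.15 with the wider window, 0.061 with normexp and loess) and KD1 over WT (0.13 with the wider window, 0.14 with normexp and loess), and for PEG3 with normexp and loess (−0.12 in KD1 over CON, −0.24 in WT over CON). Both replicate values of the 9 detected probes kept their sign under normexp and loess and under median centring in 26 of 27 cases (the exception being MEG3 A_24_P737660 in WT over CON, at 0.00 in replicate 2), those of DLK1 and the outer MEG3 probes among them. Signal over background limits H19, CDKN1C, NDN and GRB10, for which a difference was not detectable.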
